A study of Mus musculus with 8 samples.

Results

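H19 and Mir675 are 2 of the 622 genes in the deposited RNA-seq table, and they were taken as the rows that carry those symbols. H19 is an imprinted long noncoding RNA that is transcribed from the maternal chromosome, and Mir675 is the microRNA gene whose hairpin lies inside it. The RNA came from hemogenic endothelium, a type of endothelium from which blood cells emerge, grown from mouse embryonic stem cells (strain 129). FLK1+ cells of embryoid bodies (d3.25) went through 2 days of liquid blast culture, and cKIT+ TIE2+ CD41- cells were then sorted. There were 4 lines with 2 libraries each: iDam and BryGFP had a wild-type background (wt), and iDamko, which is iDam without Runx1, and Ainv18ko were Runx1 knockouts (ko). The table's columns mark the iDamko libraries by a Dam tag, and the knockout columns without that tag were taken as Ainv18ko, the only other knockout line in the labels. No wild-type Ainv18 library was part of the set, so the knockout in Ainv18 had no wt library of its own line. The genotypes are those of the submitters' labels, as the Runx1 level was not analysed here.

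H19 shares an imprinting control region with Igf2, and that region lets nearby enhancers act on H19 on the maternal chromosome and on Igf2 on the paternal one. H19 RNA is abundant in embryonic tissue and is mostly switched off after birth. In the mouse it has been linked to the emergence of blood stem cells from endothelium and to the quiescence of blood stem cells. A part of the H19 transcripts is cut to release the hairpin of microRNA-675, which restrains growth in the placenta.

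The authors kept a gene in the table when it differed between ko and each wt line, in the same direction, which gives 100% called in this comparison. Both members were therefore chosen by their difference between ko and wt, and it is described here without a test. Levels were taken as RPKM, reads scaled to gene length and library depth. A comparison between genes depends on the gene lengths that the authors used, which are not stated. The depth recovered from the values ran from 42290000 to 58890000 reads per library. In bulk RNA, fewer cells of a type and less RNA per cell cannot be told apart. Of 26 endothelial markers listed, 3 had a row in the table (Cldn5, Aplnr and Clec14a), each at 1.99 RPKM or more in every library, and the others were not analysed here.

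The microRNA sequences are shown because they fix where the Mir675 reads fall relative to H19. H19 (ENSMUSG00000000031) lies on the minus strand at chr7:142575529-142578143 and Mir675 (ENSMUSG00000076275) at chr7:142577064-142577147, in GRCm38 with GENCODE M21, while the submitters' processing notes name mm9. The hairpin of 84 bases lies in exon 1 of the transcript H19-202, at bases 997 to 1080 of its 2286 bases. In the RefSeq hairpin (GRCm38.p6), the capitals mark the 2 mature arms. In the arms, the capitals mark the seed, bases 2 to 8, which pairs with target RNAs.
Mir675 hairpin: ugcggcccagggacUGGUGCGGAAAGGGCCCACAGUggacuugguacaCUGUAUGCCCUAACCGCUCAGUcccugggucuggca
mmu-miR-675-5p: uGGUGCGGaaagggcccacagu
mmu-miR-675-3p: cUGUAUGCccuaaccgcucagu
The same hairpin stands in capitals within H19-202, with 40 bases of H19 on each side, at chr7:142577024-142577187.
H19-202: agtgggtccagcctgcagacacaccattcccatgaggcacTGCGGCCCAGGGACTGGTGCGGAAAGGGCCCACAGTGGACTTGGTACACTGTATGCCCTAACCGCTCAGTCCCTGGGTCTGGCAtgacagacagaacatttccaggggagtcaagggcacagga
The 5p and 3p seeds differ from each other, and 0 of the other mature microRNAs among the 1738 in the RefSeq table carry either of them. Mir675 therefore shares no seed with the other microRNA rows of the table that RefSeq lists.

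**Figure D1:**
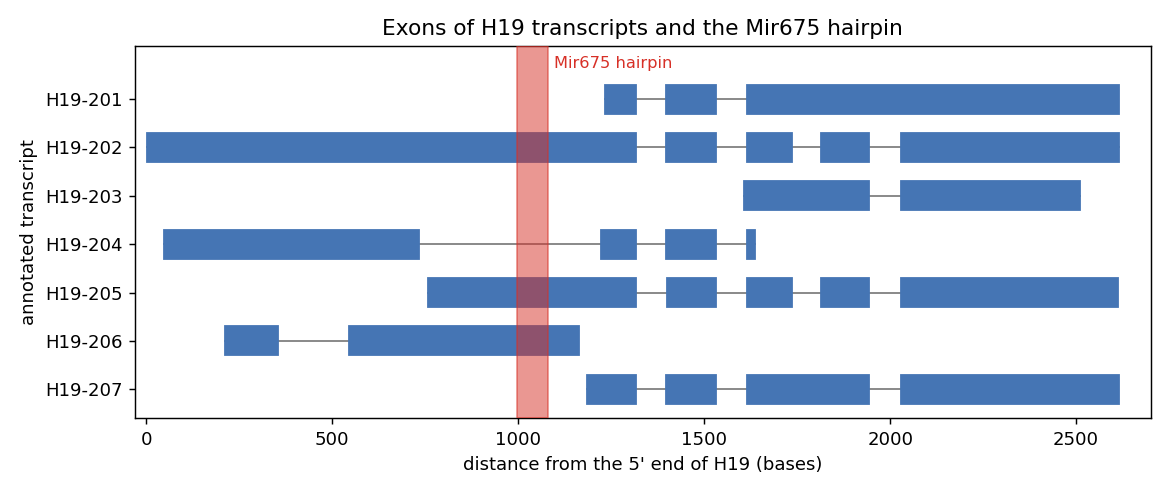
Exons (blue boxes) of the 7 annotated H19 transcripts by distance in bases from the 5′ end of the gene, with the Mir675 hairpin as a red band. The band crosses an exon in H19-202, H19-205 and H19-206 and lies outside the exons of the other transcripts.

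Of the 7 annotated H19 transcripts, 3 hold the hairpin (H19-202, H19-205 and H19-206). The library was made from total RNA depleted of ribosomal RNA, so a read over the hairpin can come from the long H19 RNA, from the excised hairpin or from a mature arm, and these cannot be told apart. Whether a read over the hairpin was counted for one gene or for both is not given in the sources used here.

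H19 was abundant in the wild-type cells and low in the Runx1 knockout cells. Its level was 36.0 and 42.5 RPKM in the 2 iDam libraries and 78.7 and 91.7 RPKM in the 2 BryGFP libraries. It was 7.43 and 4.04 RPKM in iDamko, and 2.25 and 1.34 RPKM in Ainv18ko. All 4 ko libraries lay below all 4 wt libraries, and the lowest wt library was 4.84-fold above the highest ko library. The mean was 62.2 ± 27.2 RPKM in wt (SD, n = 4) and 3.76 ± 2.69 RPKM in ko (SD, n = 4), a 16.5-fold ratio. Of all genes in the table, 61.6% had all ko libraries below all wt libraries, and 62.2% were lower in ko, so the direction alone does not set H19 apart.

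Mir675 had the same order of lines. Its level was 34.5 and 39.7 RPKM in iDam and 74.4 and 70.7 RPKM in BryGFP, and it was 5.83 and 2.83 RPKM in iDamko and 1.61 and 1.40 RPKM in Ainv18ko. The groups again did not overlap, with the lowest wt library 5.92-fold above the highest ko library. The mean was 54.8 ± 20.6 RPKM in wt and 2.92 ± 2.04 RPKM in ko (SD, n = 4 each), an 18.8-fold ratio. The hairpin is short, so these levels rest on few reads: 154 and 141 in iDam, 278 and 308 in BryGFP, 23 and 14 in iDamko, and 6 and 5 in Ainv18ko. Exact 95% Poisson intervals, which cover counting error only, ran from 2.20 to 13.1 reads for the first Ainv18ko library and from 14.6 to 34.5 reads for the first iDamko library.

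**Figure D2:**
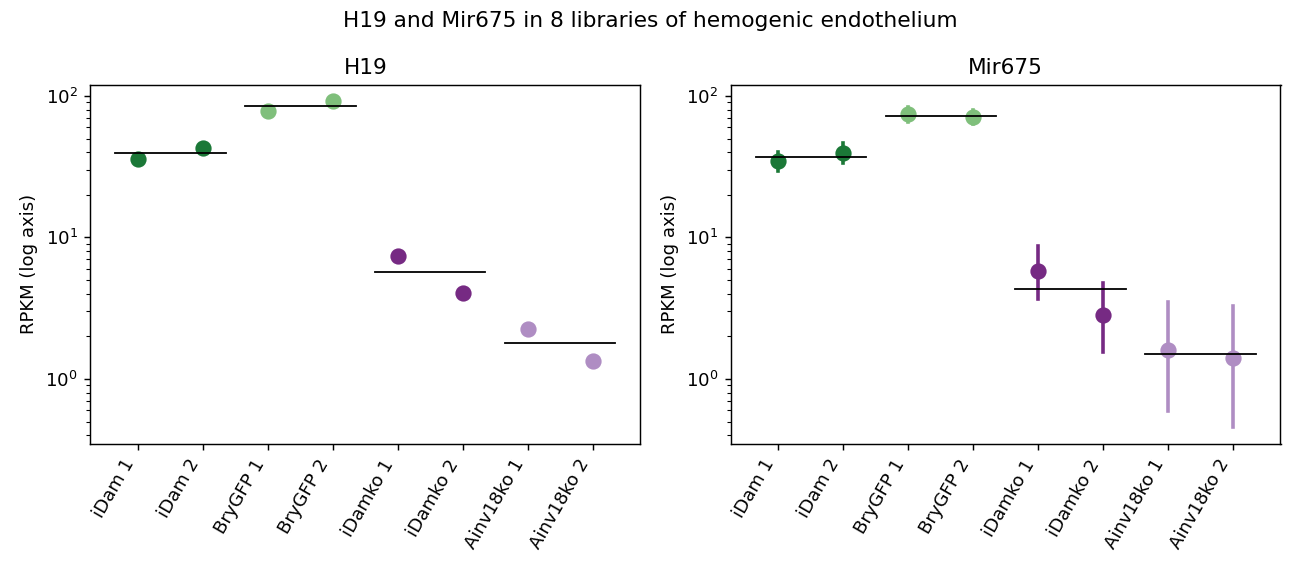
RPKM (log axis) of H19 and Mir675 in each library, with green points for wt lines, purple points for ko lines, black lines for the mean of a line, and vertical bars on Mir675 for the exact 95% Poisson interval of its reads. For both genes the order of the line means is BryGFP, iDam, iDamko, Ainv18ko, and H19 runs from 91.7 down to 1.34 RPKM.

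The log2(RPKM + 1) scale understates the change of low values. On it, H19 was lower in ko than in wt by a difference of -3.79 ± 0.20 (SE) and Mir675 by -3.89 ± 0.19 (SE). This SE covers the spread between libraries of the same line and not the spread between lines of the same genotype. The median difference of the 360 genes that averaged 1 RPKM or more was -0.83, so the members lay -2.97 and -3.06 from it. Quantile scaling moved that median to -0.18, and the members then lay -3.26 and -3.27 from it. All 360 genes were chosen for a difference between ko and wt, so neither median is that of unchanged genes. In the authors' deposited table H19 was 9.79-fold lower in ko than in iDam (FDR 3.04e-10) and 22.4-fold lower than in BryGFP (FDR 3.63e-19). For Mir675 the authors' deposited table gives 11.7-fold (FDR 1.02e-12) and 24.0-fold (FDR 2.67e-25). Both comparisons use the same 4 ko libraries, and the authors' deposited table gives median folds of 3.87 and 4.23 over the 387 genes lower in ko. By mean wt level, H19 ranked 24th and Mir675 27th of the 622 genes. By mean ko level they ranked 177th and 203rd.

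The hairpin and the long RNA had levels of the same size in every library. The ratio of Mir675 RPKM to H19 RPKM was 0.960 and 0.934 in iDam, 0.945 and 0.770 in BryGFP, 0.785 and 0.699 in iDamko, and 0.716 and 1.05 in Ainv18ko. The mean ratio was 0.902 ± 0.089 in wt and 0.812 ± 0.162 in ko (SD, n = 4 each), and the ko range of 0.699 to 1.05 held the whole wt range. With 6 and 5 reads, the 95% counting intervals in Ainv18ko ran from 0.263 to 1.56 and from 0.341 to 2.45, so a difference in the ratio within these intervals was not detectable at this depth. The absolute ratio also depends on the gene length that the authors used for H19. RPKM and the authors' log2 CPM together give a length of 1203 to 1233 bases, against 2460 bases for all annotated exons and 1217 bases for the transcript H19-201, which does not hold the hairpin.

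**Figure D3:**
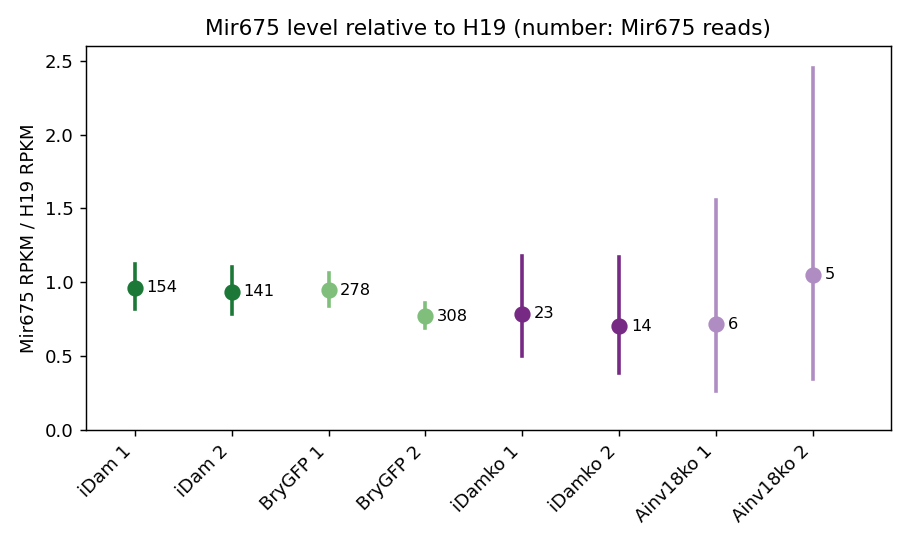
Ratio of Mir675 RPKM to H19 RPKM in each library, with bars for the exact 95% Poisson interval of the Mir675 reads and the number of those reads beside each point. The ratio lies between 0.699 and 1.05, and the intervals widen as the reads fall from 308 to 5.

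The 2 wild-type lines differed in both members. The authors' choice of genes did not use this contrast, although the members were picked from the table with its values known. H19 was 2.17-fold higher in BryGFP (85.2 ± 9.19 RPKM) than in iDam (39.2 ± 4.65 RPKM; SD, n = 2 each), a log2 difference of -1.10 ± 0.28 (SE) for iDam minus BryGFP (limma, Benjamini-Hochberg adjusted p = 0.0183 over 360 genes). Mir675 was 1.95-fold higher in BryGFP (72.5 ± 2.66 RPKM) than in iDam (37.1 ± 3.66 RPKM), a log2 difference of -0.95 ± 0.27 (limma, adjusted p = 0.0275). Such a difference was common in the table, since 25.3% of the tested genes passed between these lines with 19.2% lower and 6.11% higher in iDam. The calls rested on every wt library. H19 had an adjusted p of 0.108 and 0.0518 without the first or the second iDam library, and of 0.0763 and 0.153 without the first or the second BryGFP library (limma). Mir675 had 0.147 and 0.0719 without an iDam library, and 0.142 and 0.140 without a BryGFP library. The lone library left is then assumed to vary like the other lines.

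Between the 2 knockout lines the remaining H19 was higher in iDamko than in Ainv18ko. The mean was 5.74 ± 2.39 RPKM in iDamko and 1.79 ± 0.642 RPKM in Ainv18ko (SD, n = 2 each), a 3.20-fold ratio. The log2 difference of 1.24 ± 0.28 (SE) passed the test narrowly (limma, adjusted p = 0.0448). In this contrast 3.61% of the tested genes passed, with 12 lower in iDamko (3.33%) and 1 higher (0.278%), which was H19. H19 had the highest and Mir675 the second highest difference of the 360 genes, around a median of -0.01. For Mir675 the mean was 4.33 ± 2.12 RPKM in iDamko and 1.51 ± 0.144 RPKM in Ainv18ko, and its log2 difference of 1.03 ± 0.27 (95% interval 0.42 to 1.64) did not pass (limma, adjusted p = 0.101).

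The H19 call between the knockout lines was fragile. It was lost in 9 of 14 alternatives, over which the adjusted p ran from 0.00835 to 0.353 and the log2 difference from 0.87 to 1.66. Without the first iDamko library the adjusted p was 0.334, and without the first or the second Ainv18ko library it was 0.0559 or 0.353 (limma). Leaving out a wt library, which changes only the shared estimate of the spread, gave 0.0615 and 0.0602 for the iDam libraries and 0.149 and 0.151 for the BryGFP libraries. The direction was the same in each of these. Without the second iDamko library the H19 call held, and Mir675 passed with an adjusted p of 0.00716.

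**Figure D4:**
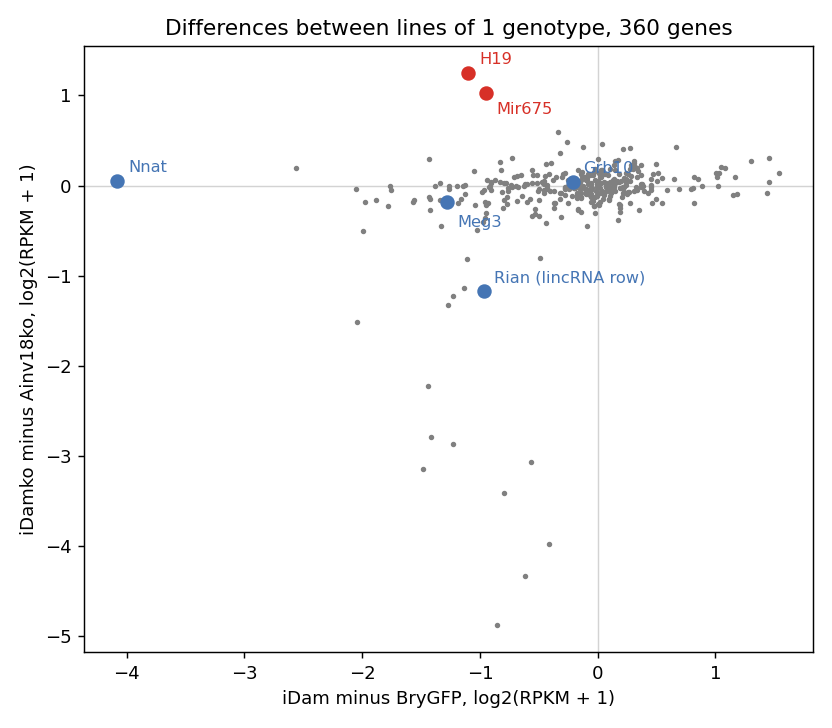
Each point is 1 of 360 genes, by its log2(RPKM + 1) difference between the wt lines (iDam minus BryGFP, x axis) and between the ko lines (iDamko minus Ainv18ko, y axis), with the members in red and 4 other imprinted genes in blue. H19 (-1.10, 1.24) and Mir675 (-0.95, 1.03) lie at the top left, above all other genes on the y axis.

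The size of the difference between ko and wt depended on the pair of lines for both members. From iDam to iDamko the mean H19 level was 6.84-fold lower, and from BryGFP to Ainv18ko it was 47.6-fold lower. For Mir675 the folds were 8.58 and 48.2. The difference between the ko effects was 2.34 ± 0.40 on the log2 scale for H19 (limma, adjusted p = 0.00787) and 1.98 ± 0.38 for Mir675 (limma, adjusted p = 0.0159), and 9.72% of the tested genes passed, 6.11% with a positive difference as here. This difference is that between the ko lines minus that between the wt lines, and it ranked 3rd for H19 and 5th for Mir675 of 360. Without the second BryGFP library the adjusted p was 0.0532 for H19 and 0.0681 for Mir675, and without the first BryGFP library it was 0.0610 for Mir675. Since BryGFP and Ainv18ko are different lines, the effect of the knockout and that of the line cannot be told apart in this pair.

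The part of chromosome 7 around H19 held no other gene of the table. Of 40 listed symbols of the distal chromosome 7 imprinted domain, the 2 members had a row, and of 45 annotated genes within 500 kb of H19, again 2 had one. Igf2 and the other genes of the domain were not analysed here, since the table holds only genes that the authors called. The nearest other gene with a row was Ccnd1, a cyclin that drives cells into division, at a distance of 2.35 Mb. It averaged 34.1 RPKM in wt and 8.74 RPKM in ko. Of the 26 rows on chromosome 7, 22 were lower and 4 higher in ko, where 62.2% of all rows were lower by the choice of the table.

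Other imprinted genes with a row were all lower in ko as well, by the choice of the table and with 62.2% of all rows lower. They made up 12 rows of the listed imprinted genes, and in each of them all 4 ko libraries lay below all 4 wt libraries. Such a separation was found in 383 of all 622 rows (61.6%), where 387 rows were lower in ko, so it does not set these rows apart. The ratio of the wt mean to the ko mean ran from 1.88 to 207 over these rows. Grb10, an adaptor protein that restrains growth, was 85.0 and 99.1 RPKM in iDam, 89.9 and 126 RPKM in BryGFP, 0.786 and 0.249 RPKM in iDamko, and 0.489 and 0.411 RPKM in Ainv18ko. Its ko libraries lay below those of H19, although its wt libraries lay above those of iDam for H19. Ndn, which encodes the growth suppressor necdin, had the smallest ratio of these rows, with 33.5 to 37.1 RPKM in the wt libraries and 15.5 to 22.0 RPKM in the ko libraries.

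The noncoding RNAs of the imprinted Dlk1-Dio3 domain on chromosome 12 are, like H19, transcribed from the maternal chromosome. Of these, Meg3 and Rian had the order of H19 in wt, and Rian had the opposite order in ko. Meg3, the long noncoding RNA at the start of that domain, was 2.85 and 1.19 RPKM in iDam and 4.64 and 7.86 RPKM in BryGFP. It was at most 0.204 RPKM in any ko library, with a log2 difference of -0.18 ± 0.29 (SE) for iDamko minus Ainv18ko. The long RNA row of Rian, a host of small nucleolar RNAs, was 21.4 and 22.5 RPKM in iDam, 36.0 and 53.3 RPKM in BryGFP and 1.58 and 0.985 RPKM in Ainv18ko, and both iDamko libraries were under 0.01 RPKM. Its second row, annotated as a small nucleolar RNA, was listed at 0 in both iDamko libraries and at 8.52 and 6.38 RPKM in Ainv18ko, and reads shared by the 2 Rian rows cannot be told apart. Ainv18ko was thus the higher ko line for Rian and the lower one for H19.

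Of the 12 other imprinted rows, 8 reached a mean of 1 RPKM and were tested between lines. Between the wt lines 4 of the 8 passed, all lower in iDam, where 25.3% of all tested genes passed and 19.2% were lower in iDam. The median log2 difference of the 8 was -0.67, against -0.10 for all 360 genes. The 4 that passed were Nnat, a membrane protein expressed from the paternal chromosome (-4.08 ± 0.25, limma adjusted p = 1.37e-05), Meg3 (-1.28 ± 0.29, adjusted p = 0.0117), Mirg, a host RNA of microRNAs (-0.77 ± 0.18, adjusted p = 0.0145), and the long RNA row of Rian (-0.97 ± 0.24, adjusted p = 0.0159). Meg3, Mirg and the 2 Rian rows among the 8 belong to the 1 Dlk1-Dio3 domain. The count and the median therefore do not rest on 8 separate loci. The Meg3, Mirg and Rian calls were lost without the second iDam library (adjusted p of 0.0682, 0.0719 and 0.0628) or without the second BryGFP library (0.117, 0.0687 and 0.135), and the Rian call also without the first iDam library (0.0795; limma). Mirg also lost its call with a pseudocount of 0.1 (limma, adjusted p = 0.142), and the long RNA row of Rian with no pseudocount (limma, adjusted p = 0.0968). Between the ko lines the 2 Rian rows passed, both lower in iDamko. The difference was -1.17 ± 0.24 for the long RNA (limma, adjusted p = 0.0244) and -3.07 ± 0.22 for the small one (limma, adjusted p = 1.71e-05). In this contrast 3.61% of all tested genes passed, 3.33% lower in iDamko. The long RNA call was lost without the first or the second iDamko library (0.112 and 0.104) and without the first Ainv18ko library (0.196; limma). It was also lost under quantile scaling (-0.75, adjusted p = 0.153) and with no filter on low values (adjusted p = 0.0530; limma).

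**Figure D5:**
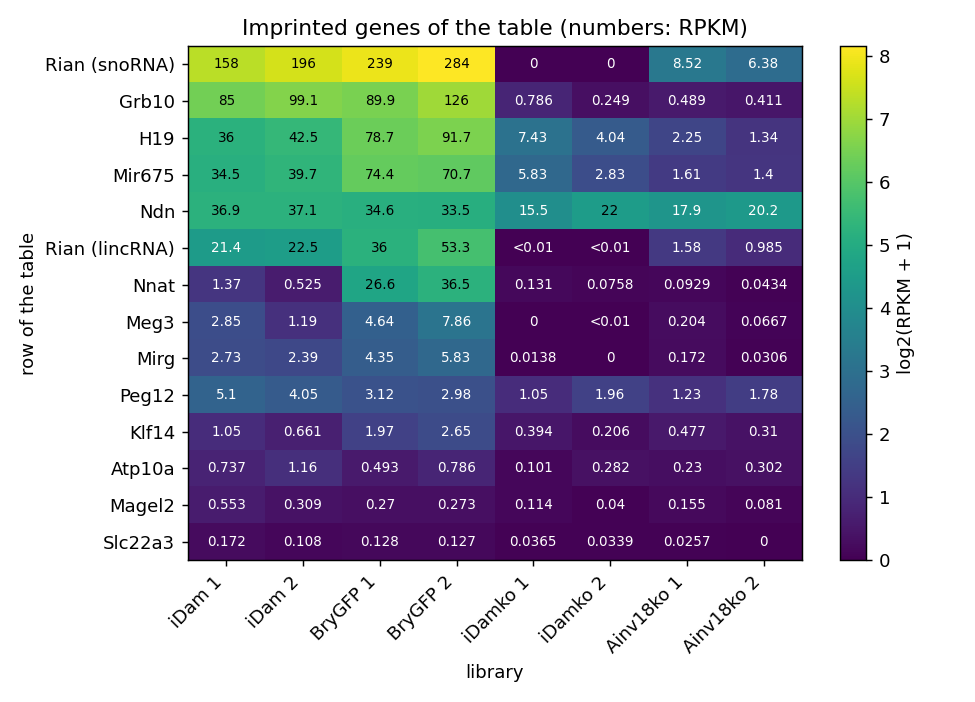
Colour gives log2(RPKM + 1) and the printed number gives RPKM for H19, Mir675 and the 12 other imprinted rows of the table (rows) in the 8 libraries (columns). H19 and Mir675 stay at 1.34 RPKM or more in the ko libraries, where Meg3, Mirg and Rian are lowest in iDamko.

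Mir675 stood apart in level from the other microRNA rows. The table held 29 microRNA rows, and the other 28 were all lower in ko, in a table with 62.2% lower. Their wt means ran from 0.914 to 7.77 RPKM, against 54.8 RPKM for Mir675. In ko their highest single library was 0.634 RPKM, below the lowest Mir675 library of 1.40 RPKM. Of these 28, 25 lie on chromosome 12, Mir196a-1 lies on chromosome 11, and 2 (Mir3070a and Mir3070b) had no matched position. Of the 28, 18 were listed at 0 in all 4 ko libraries and 27 in both iDamko libraries, while Mir675 had reads in every library. Rows this low in wt hold few reads, so a 0 in ko in a single row does not show a larger fall than that of Mir675. Over all 28 rows, the fall from iDam to iDamko was larger than that of Mir675. Every row had reads in both iDam libraries, and 27 were at 0 in both iDamko libraries. Mir675 kept 5.83 and 2.83 RPKM in iDamko. The same comparison from BryGFP to Ainv18ko was not made. The next 3 by mean level were Mir1906-1, Mir3070a and Mir134. Mir1906-1 was 3.30 and 1.77 RPKM in iDam and 10.1 and 15.9 RPKM in BryGFP, and it was listed at 0 in both iDamko libraries and at 0.563 and 0.295 RPKM in Ainv18ko.

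Genes described as acting on H19, or downstream of H19 and microRNA-675, were looked up by a list of 37 symbols, of which 3 had a row, all lower in ko as were 62.2% of all rows. Zfp57, a zinc finger protein that keeps methylation at imprinting control regions, averaged 10.7 ± 1.49 RPKM in wt and 5.18 ± 0.563 RPKM in ko (SD, n = 4 each). Hmga2, a chromatin protein of embryonic cells, averaged 24.3 ± 8.61 RPKM in wt and 8.54 ± 1.63 RPKM in ko. Tgfbi, a secreted matrix protein and in human cells a described target of microRNA-675, averaged 5.27 ± 1.87 RPKM in wt and 0.777 ± 0.229 RPKM in ko. Tgfbi was therefore low in the same libraries in which Mir675 was low.

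The genes whose pattern was most like that of H19 were ranked by Pearson's r of log2(RPKM + 1) over the 8 libraries among 359 others, as a description, since the libraries share genotype and line. Mir675 came first with r = 0.997, followed by U1 at 0.966, a spliceosomal RNA gene with many near-identical copies, and by Wnt2, Fam160a1 and Trim68 at 0.963 each. These values largely follow the difference between wt and ko. With the mean of each genotype subtracted, Mir675 was again first with r = 0.979, then 1300010F03Rik at 0.879, Alas2 at 0.814, U1 at 0.712 and Epb4.9 at 0.706. For Mir675 the first 5 with the genotype means subtracted were H19, 1300010F03Rik, Alas2, Xpo4 and Naa16. Alas2, the first enzyme of heme synthesis in red cells, was higher in ko than in wt, at 15.6 and 9.15 RPKM in iDamko and 12.4 and 7.20 RPKM in Ainv18ko against 0.603 to 2.28 RPKM in the wt libraries.

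Markers of other cell types differed in level between the lines too. Of 16 smooth muscle and mesenchyme markers, 2 had a row, Acta2 and Pdgfrb, and neither was at 0 in any library. Their summed level was 123 to 138 RPKM in iDam and 457 to 648 RPKM in BryGFP, and it was 18.7 to 23.5 RPKM in iDamko and 49.4 to 74.2 RPKM in Ainv18ko. In wt it was higher in BryGFP, as H19 was, and in ko it was higher in Ainv18ko, where H19 was lower. In ko the sum was nearly all Acta2, which averaged 20.3 RPKM in iDamko and 60.8 RPKM in Ainv18ko. Pdgfrb overlapped between the ko lines, at 0.951 and 0.621 RPKM in iDamko and 1.42 and 0.684 RPKM in Ainv18ko. The 3 endothelial markers summed to 81.1 to 84.9 RPKM in iDam, 40.8 to 44.1 RPKM in BryGFP, 14.2 to 19.9 RPKM in iDamko and 9.28 to 19.2 RPKM in Ainv18ko. Of 21 erythroid markers, 4 had a row, all higher in ko, as were 235 of all 622 rows. The 4 summed to 50.7 to 71.4 RPKM in wt and 139 to 170 RPKM in ko.

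Of all 622 rows, 387 (62.2%) were lower and 235 higher in ko, which is the background for the marker counts that follow. Of 14 neural markers, 2 had a row, Nefl and Tubb3, both higher in ko. They summed to 3.27 to 4.04 RPKM in iDam, 18.0 to 23.5 RPKM in BryGFP, 54.4 to 131 RPKM in iDamko and 58.0 to 110 RPKM in Ainv18ko. They were thus higher in BryGFP than in iDam, like H19, and highest in ko, unlike H19. Of 22 cardiac markers, 7 had a row, 5 higher and 2 lower in ko. The 7 summed to 28.3 to 42.6 RPKM in iDam, 51.2 to 57.9 RPKM in BryGFP, 96.4 to 108 RPKM in iDamko and 88.9 to 116 RPKM in Ainv18ko. This sum mixes genes of both directions. Hand1, lower in ko, averaged 4.68 RPKM in iDam, 19.1 RPKM in BryGFP, 0.991 RPKM in iDamko and 1.28 RPKM in Ainv18ko. Gata4, higher in ko, averaged 8.77, 12.6, 44.2 and 43.5 RPKM in the same order. Of 17 myeloid and megakaryocyte markers, 2 had a row, Itgb3 and Lyz2, both lower in ko, with sums of 2.68 to 2.99 RPKM in iDam, 7.24 to 8.61 RPKM in BryGFP and 0.136 to 0.400 RPKM in the ko libraries. Lyz2 was listed at 0 in 3 of the 4 ko libraries. Of 19 endoderm markers 2 had a row (Cdx2 lower and Foxa2 higher in ko), and of 16 pluripotent markers 1 did (Dppa4, lower in ko). The part of these cell types in the H19 and Mir675 levels was not tested.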

How the data were processed

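Total RNA was isolated with a column kit, depleted of ribosomal RNA and sequenced as SOLiD libraries, per the labels' protocols. The submitters' processing notes name mm9 and edgeR, and nothing states the aligner, the gene counter or the use of strand. The deposited table gives 1 level per gene and library, taken as RPKM from the values, since the file header does not name the unit. The authors also deposited log2 fold changes, mean log2 CPM, p-values and FDR for ko against each wt line. All 622 genes passed an FDR of 0.05 in both comparisons. The file repeats the 4 ko columns unchanged, and 1 copy was read. Column names give a genotype or line tag (Dam, Bry) and a library number. The Ainv18ko columns carry no line tag, and their line was inferred from the absence of the Dam tag.

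Reads per library were recovered from RPKM as the depth at which low values of short genes became whole within 0.06 reads. Where a library had too few such values, as in iDamko, genes of any length were used instead. Those genes were kept because they already gave whole reads in other libraries. Between 81.3% and 100% of the 14 to 39 values used per library were whole. The search for the depth maximised this share, so it is not a separate check. Line contrasts on log2(RPKM + 1) were fitted in R 4.3.3 by limma 3.58.1 (trend option), over the 360 genes averaging 1 RPKM or more, with 1 mean per line, a shared spread and Benjamini-Hochberg adjustment at 0.05. Tests cover only genes of this table, chosen by the authors for ko against wt. The labels call the 2 libraries of a line biological duplicates without naming separate cultures, so p-values measure the spread between these libraries. The fits were tried on simulated data with known shifts in the iDam libraries only. Recovery of a difference between the ko lines, or between the ko effects, was not examined. Pseudocount, filter, quantile scaling, a replicate block and each library left out were tried as alternatives.

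The genes named were the members, the listed imprinted genes and H19 regulators with a row, the 3 other microRNA rows with the highest mean, and the 5 genes most like each member. Ccnd1 and the marker genes named were added after their values were seen. Members and lists were chosen with earlier results of these data known. Positions come from GENCODE M21 on GRCm38 by Ensembl ID (612 of 622 matched), and microRNA sequences from RefSeq (GRCm38.p6).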

Additional observations from a re-analysis of the deposited data

Results flagged for a closer look

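The difference between the ko effects of the 2 pairs of lines stood out for both members, because an interaction test passed. It was 2.34 on the log2(RPKM + 1) scale for H19 (limma, adjusted p = 0.00787) and 1.98 for Mir675 (limma, adjusted p = 0.0159), so the ko level lay further below the wt level from BryGFP to Ainv18ko than from iDam to iDamko. Both values describe 1 locus, and the second pair joins lines of different origin.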

How the results depend on the processing

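H19 and Mir675 were lower in ko in each of 14 alternatives, with log2 differences of -4.23 to -3.44 and -4.39 to -3.45. Between the wt lines, H19 kept its direction and lost its call with no pseudocount (-1.12, adjusted p = 0.0712). Mir675 lost it with a pseudocount of 0.1 (-0.97, adjusted p = 0.0566) and with none (-0.97, adjusted p = 0.0906). With single libraries left out, H19 ran from -1.22 to -0.98 and Mir675 from -1.05 to -0.85, and 48 to 94 genes passed, with 52 and 55 without the first or the second iDam library and 48 without the second BryGFP library against 91 with all. Between the ko lines, H19 lost its call with no filter on low values (1.24, adjusted p = 0.108, with more genes adjusted for) and with no pseudocount (1.66, adjusted p = 0.183). Mir675 passed with a pseudocount of 0.1 (1.38, adjusted p = 0.0370). With single libraries left out, H19 ran from 0.87 to 1.61, Mir675 from 0.61 to 1.45, and 9 to 13 genes passed. With no pseudocount 1 gene passed. For the difference between ko effects, single libraries left out gave 1.97 to 2.71 for H19, 1.56 to 2.40 for Mir675 and 14 to 26 genes (24 or fewer without any library other than the first iDam one), and no pseudocount gave 12 genes against 35. The fits without a pseudocount were added after the data were seen and cover 528 genes with no level at 0. The cause of these changes was not tested. Some of the alternatives also change the number of samples or genes that enter the fit. Of the alternatives for the other imprinted genes, 67 kept their call and 14 lost it with the same direction.

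Same-numbered libraries of iDam, iDamko and Ainv18ko deviated together from their line means (r of 0.41, 0.52 and 0.69 over the 3 pairs of these lines), while the pairs with BryGFP gave -0.20, -0.03 and 0.01. The labels do not say that a number marks a shared batch, so the samples were not treated as paired. With the number as a replicate block, 53 genes in place of 35 passed for the difference between ko effects. No H19 or Mir675 call changed under the block, with adjusted p of 0.0161 and 0.0215 between the wt lines and 0.0485 and 0.0777 between the ko lines. Quantile scaling moved the median of all genes between the wt lines from -0.10 to 0.15, and H19 lay -1.14 from the latter.

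Mir675 in Ainv18ko rests on 6 and 5 reads, which limits its level and ratio there. With 2 libraries per line, the line contrasts can be decided by 1 library.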
